A study of Mus musculus with 19 samples.

Results

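The urea cycle is the route by which the liver turns ammonia into urea. The genes described here are its 5 enzymes (Cps1, Otc, Ass1, Asl and Arg1), the enzyme that makes the activator of its first step (Nags), 2 mitochondrial carriers that it depends on (Slc25a15 and Slc25a13) and 2 enzymes that release ammonia inside mitochondria (Gls2 and Glud1). These 10 genes, and the gene lists set beside them below, were chosen by name with earlier results of these data known. All 10 were found among the 13549 genes of the embryonic liver table and among the 17606 gene identifiers of the tumour files, and all 10 passed the filter on low values in both.

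Both experiments model fibrolamellar carcinoma in mice. In this tumour of the liver, the start of DNAJB1, a chaperone gene, is joined to PRKACA, the gene of a catalytic subunit of protein kinase A. RNA was measured by sequencing. The 9 embryonic livers were taken at embryonic day 18.5. In the 4 fusion livers a cDNA coding for DNAJB1-PRKACA and GFP sat in the Rosa26 locus behind a stop cassette, which Alb-Cre, a recombinase driven by the albumin promoter, removes in liver from mid-gestation. The 5 control livers are labelled control, with no further genotype. The 10 tumours grew from the mouse cell line FL8, set in gelatin capsules under the skin of the flank of immunodeficient NSG mice. The mice were randomized when tumours reached a mean of 75 mm3, and were dosed by mouth for 3 days with 4 days off, 5 with the methocel carrier (vehicle) and 5 with 75 mg/kg of palbociclib, which blocks the cell cycle kinases CDK4 and CDK6. All tumours share this 1 line and there was no normal liver beside them. The labels do not say that libraries of a group came from separate litters, so p-values measure the spread between these libraries.

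In the cycle, carbamoyl phosphate made from ammonia and bicarbonate in mitochondria is joined to ornithine to give citrulline. Citrulline leaves for the cytosol, takes up the second nitrogen from aspartate, and is cleaved by way of argininosuccinate and arginine to urea and ornithine, which re-enters the mitochondrion. The full cycle is a property of hepatocytes, in the adult liver mainly those around the portal vein, and several of its genes are known to be switched on around birth by glucagon, cyclic AMP, glucocorticoids and factors of the C/EBP family.

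Library size ranged from 7.66 to 23.1 M counts in control livers, 13.5 to 45.6 M in fusion livers, 2.96 to 33.9 M in vehicle tumours and 24.9 to 43.1 M in palbociclib tumours, where M stands for 1000000. Levels are given as counts per 1000000 counts (CPM). In 4 embryo libraries (control 1 and 2, fusion 8 and 9) ribosomal protein genes took 9.72% to 10.1% of counts, against 6.18% to 7.87% in the other 5, and results are given on each side of 8% where this matters. By the level of Xist, control 1 and 2 and fusion 6, 7 and 8 were female. Below 8% the genotype and the sex of the embryo can therefore not be told apart. Among the controls the ribosomal share and sex cannot be told apart either. Vehicle tumour 1 had 46.6% of its reads on mitochondrially encoded genes, and vehicle tumour 5 was the smallest library. Prkaca, which the transgene should raise, stood at 43.4, 50.5, 38.0, 36.3 and 45.3 CPM in controls 1 to 5 and at 114, 72.4, 53.8 and 52.0 CPM in fusion livers 6 to 9. The groups did not overlap, but fusion livers 8 and 9 lay close to control 2. Its log2 fold change was 0.78 with an SE of 0.22 (adjusted p = 0.0379, edgeR), and 0.19 (edgeR, adjusted p = 0.367) among the libraries above 8%. With the sex of the embryo in the fit the adjusted p was 0.0979 in edgeR. Leaving out control 1, 3, 4 or 5 or fusion liver 6 or 7 also ended the call (edgeR, adjusted p from 0.0558 to 0.0860), and without fusion liver 6 the log2 fold change was 0.49.

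Near copies and overlapping genes bear on the reading of 3 members, Ass1, Nags and Glud1. Ass1, on chromosome 2 (31470207 to 31520672, mm10, plus strand), has an intronless copy, the processed pseudogene Gm5424 on chromosome 10 (62071123 to 62072362, plus strand). In the transcripts of GENCODE release M21, the copy matched Ass1 over 1240 bases at 99.5% identity. This stretch covers the whole coding sequence of Ass1, including 13 of its exon junctions, and differs at 6 bases. Positions below count from 1 at the A of the start codon, with the base of Ass1 first. Among the differences were T399C, T429C, A520T, G656C and T1011C, and the longest stretch without one was 398 bases. T399C and G656C are shown as pairs of 41 bases with the differing base in capitals, to show how little separates a read of one gene from a read of the other:
Ass1, T399C: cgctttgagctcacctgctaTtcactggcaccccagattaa
Gm5424, T399C: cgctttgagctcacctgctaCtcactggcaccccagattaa
Ass1, G656C: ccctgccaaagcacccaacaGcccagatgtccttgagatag
Gm5424, G656C: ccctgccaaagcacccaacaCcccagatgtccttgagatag

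How reads that fit both genes were counted is not given in the sources used here. Gm5424 has no row in the embryo table. In the tumour files it took 19.3% to 39.3% of the reads of both genes, and followed Ass1 from tumour to tumour (r = 0.96 of log2 CPM, n = 10 tumours, given as a description). Values of Ass1 are therefore uncertain. Other overlaps were shorter. Nags shares 445 bases with Gm11586, an antisense gene, and Glud1 has a pseudogene, Glud-ps, at 97.6% identity over 656 bases.

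RefSeq start sites on GRCm38.p6 (the assembly of mm10) were at hand for 6 of the 10 members (Otc, Ass1, Nags, Slc25a15, Slc25a13 and Glud1, with 2 start sites for Slc25a15), and not for Cps1, Asl, Arg1 and Gls2. The 250 bases before each start were searched on both strands for 3 motifs: the cyclic AMP response element TGACGTCA, which is bound by CREB, a factor that protein kinase A activates; its core TGACG, which the full element contains; and the C/EBP motif TTGCNNAA. The full element and the C/EBP motif had no match in the 7 windows, against 1.55% and 9.56% of 32851 windows of the same length over all genes. With shares this low, 7 windows are too few to show a lack of these motifs. The core had 1 match, in the window of Slc25a13, against 17.8% of all windows. The windows of both carriers are printed because one carrier differed between the embryo groups and the other did not. The window of Slc25a15 is chr8:22398622-22398871 (minus strand) and that of Slc25a13 is chr6:6217174-6217423 (minus strand), each ending at the base before the start site, with the core in capitals:
Slc25a15: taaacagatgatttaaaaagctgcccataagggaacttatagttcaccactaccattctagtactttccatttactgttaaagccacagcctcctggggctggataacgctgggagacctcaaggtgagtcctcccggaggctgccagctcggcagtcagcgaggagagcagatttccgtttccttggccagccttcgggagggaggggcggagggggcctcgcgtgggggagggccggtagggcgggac
Slc25a13: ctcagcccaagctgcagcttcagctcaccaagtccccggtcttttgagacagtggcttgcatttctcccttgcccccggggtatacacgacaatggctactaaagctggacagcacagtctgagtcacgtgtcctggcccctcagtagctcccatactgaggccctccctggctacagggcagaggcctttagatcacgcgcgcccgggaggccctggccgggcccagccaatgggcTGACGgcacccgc

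The core lay 13 bases before the start of Slc25a13, the carrier that did not pass the test, and these letters were not in the window of Slc25a15, the carrier that did. A match is a description of these letters only.

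In embryonic liver, 4 of the 10 members were higher with the fusion and 0 were lower at an adjusted p under 0.05 (edgeR quasi-likelihood test, Benjamini-Hochberg over all genes tested). Over all 13316 genes tested, 12.8% were called, 5.99% higher and 6.81% lower. Since the members were chosen with earlier results of these data known, this comparison is a description and not a test. The 4 were Gls2, Slc25a15, Cps1 and Ass1, that is, ammonia release, the ornithine carrier, the entry step and the aspartate-consuming step. In these 4 genes every fusion liver was also above every control, which held for 8.37% of all genes tested. Ass1 passed the filter on low counts through the fusion livers, so its call and its lack of overlap are no support for these counts. Otc, Asl, Nags, Slc25a13 and Glud1 stayed between log2 fold changes of -0.10 and 0.21 and did not pass. Arg1 did not pass either, with a log2 fold change of 0.88. The median log2 fold change of the 10 members, Ass1 included, was 0.53, against -0.01 over all genes tested. It fell in the gap between Slc25a13 at 0.21 and Cps1 at 0.85, so it does not describe a shift of all members. Without Ass1 the middle value of the members was that of Slc25a13, 0.21.

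**Figure D1:**
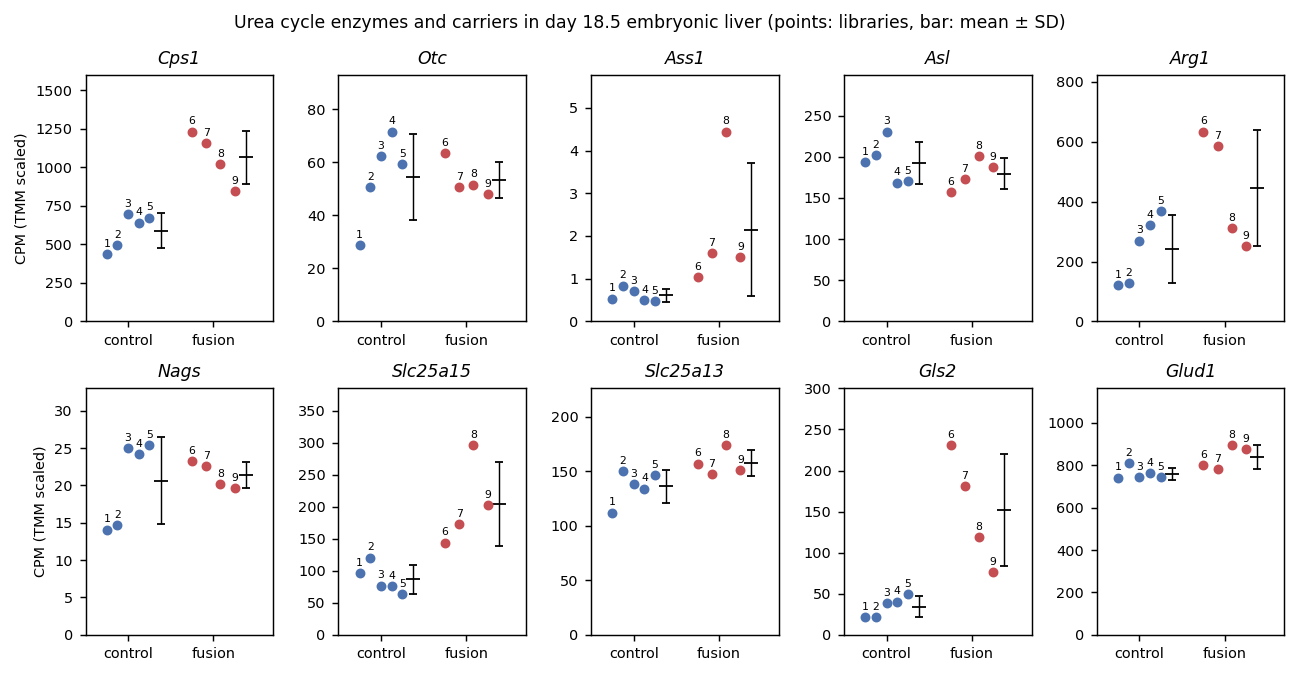
CPM (TMM scaled, linear axis from 0) of each member in 5 control and 4 fusion livers; points are libraries with their number, the bar is the mean ± SD. Fusion livers lie above all controls in the panels of Cps1, Ass1, Slc25a15 and Gls2, while in Arg1 fusion livers 8 and 9 fall within the range of the controls.

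Gls2 codes for the liver-type glutaminase, which splits glutamine into glutamate and ammonia, and lies on chromosome 10 (128194457 to 128210004, plus strand). It stood at 21.5, 21.6, 38.6, 40.4 and 49.4 CPM in controls 1 to 5, and at 231, 181, 119 and 76.5 CPM in fusion livers 6 to 9. The lowest fusion liver was above the highest control. The mean was 34.3 ± 12.4 CPM (SD, n = 5) in controls and 152 ± 68.1 (SD, n = 4) in fusion livers, a log2 fold change of 2.14 with an SE of 0.33 (adjusted p = 0.00254, edgeR). In each group the libraries with the larger ribosomal share were the lowest. The log2 fold change was 2.19 among libraries above 8% and 2.27 among those below.

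Glutamate dehydrogenase, coded by Glud1 on chromosome 14 (34310727 to 34345265, plus strand), releases ammonia from glutamate. Its level was 742, 810, 745, 764 and 745 CPM in controls and 800, 781, 897 and 878 CPM in fusion livers. The groups overlapped, with a log2 fold change of 0.14 with an SE of 0.12 (adjusted p = 0.472, edgeR). Glud1 was the steadiest member, its highest embryo library being 1.21 times its lowest. Nags (chromosome 11, 102145513 to 102149477, plus strand) makes N-acetylglutamate, the activator without which Cps1 is idle. It was at 14.1, 14.6, 25.0, 24.2 and 25.4 CPM in controls and 23.2, 22.6, 20.2 and 19.6 CPM in fusion livers. Fusion livers lay inside the range of the controls, and the log2 fold change was 0.04 with an SE of 0.19 (adjusted p = 0.913, edgeR). Here the controls differed across the 8% split, which among them is also the split by sex, but the fusion livers hardly did. Among libraries above 8% the log2 fold change was 0.48 (edgeR, adjusted p = 0.0564) and among those below it was -0.12 (edgeR, adjusted p = 0.428).

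Cps1 (chromosome 1, 67123026 to 67231259, plus strand), the mitochondrial enzyme that commits ammonia to the cycle, stood at 439, 497, 694, 641 and 673 CPM in controls 1 to 5 and at 1232, 1159, 1023 and 844 CPM in fusion livers 6 to 9. The groups did not overlap. The means were 589 ± 114 CPM (SD, n = 5) and 1064 ± 171 CPM (SD, n = 4), with a log2 fold change of 0.85 with an SE of 0.18 (adjusted p = 0.0115, edgeR). It was called on both sides of the 8% split, at 1.00 above and 0.84 below on the log2 scale. Otc (X chromosome, 10252305 to 10321024, plus strand) makes citrulline in the next step. It was at 28.7, 50.6, 62.4, 71.5 and 59.3 CPM in controls and at 63.3, 50.7, 51.6 and 48.1 CPM in fusion livers. Control 1 was the lowest, and the other libraries overlapped. The log2 fold change was -0.03 with an SE of 0.22 (adjusted p = 0.950, edgeR).

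The carriers stood apart from each other. Slc25a15 (chromosome 8, 22375551 to 22398597, minus strand) exchanges cytosolic ornithine for mitochondrial citrulline. It was at 96.4, 121, 76.9, 75.8 and 64.0 CPM in controls and at 144, 173, 297 and 203 CPM in fusion livers, with no overlap. Its mean rose from 86.8 ± 22.3 CPM (SD, n = 5) to 204 ± 66.3 CPM (SD, n = 4). This is a log2 difference of 1.24 with an SE of 0.23 (adjusted p = 0.00639, edgeR). In this gene the libraries with the larger ribosomal share were the higher ones in each group, the reverse of Gls2 and Cps1. The log2 fold change was 1.22 above 8% and 1.13 below. Slc25a13, or citrin (chromosome 6, 6041218 to 6217173, minus strand), brings mitochondrial aspartate to the cytosol. Its controls were at 112, 150, 138, 134 and 146 CPM and its fusion livers at 157, 147, 174 and 151 CPM. They overlapped, with a log2 fold change of 0.21 with an SE of 0.12 (adjusted p = 0.279, edgeR).

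Of the cytosolic steps, Ass1, which joins citrulline to aspartate, was near the limit of detection. It had 9, 6, 15, 12 and 11 counts in controls 1 to 5 and 50, 27, 58 and 22 counts in fusion livers 6 to 9. This corresponds to 0.480 to 0.837 CPM in controls and to 1.04, 1.60, 4.45 and 1.51 CPM in fusion livers. All fusion livers were above all controls, and fusion liver 8 stood far above the other 3. The log2 fold change was 1.81 with an SE of 0.43 (adjusted p = 0.0205, edgeR). It was 1.20 without fusion liver 8 (edgeR, adjusted p = 0.0330), 2.20 above 8% and 1.17 below. With the sex of the embryo in the fit, the adjusted p in edgeR was 0.0649. Ass1 passed the filter on low counts through the fusion livers: all 4 of them and 2 of the 5 controls reached its 0.563 CPM. It is therefore no support for the count of called members, which without it was 3 of 9, and the pseudogene leaves its values uncertain. Asl (chromosome 5, 130011258 to 130029247, minus strand), which cleaves argininosuccinate, was at 193, 202, 231, 169 and 170 CPM in controls and 157, 173, 200 and 188 CPM in fusion livers. The groups overlapped, with a log2 fold change of -0.10 with an SE of 0.13 (adjusted p = 0.653, edgeR).

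Arg1 (chromosome 10, 24915221 to 24927484, minus strand), the enzyme that releases urea, changed its call with how the libraries were set against each other. It was at 120, 127, 270, 321 and 369 CPM in controls 1 to 5 and at 634, 585, 313 and 250 CPM in fusion livers 6 to 9. Fusion livers 8 and 9 lay within the range of the controls, and the pooled log2 fold change was 0.88 with an SE of 0.38 (adjusted p = 0.148, edgeR). Set against the controls on their own side of the 8% split, all 4 fusion livers were higher. Above 8%, controls were at 120 and 127 CPM and fusion livers at 313 and 250 CPM, a log2 fold change of 1.20 (edgeR, adjusted p = 0.00166). Below 8%, controls ranged from 270 to 369 CPM and fusion livers from 585 to 634 CPM, a log2 fold change of 0.93 (edgeR, adjusted p = 0.00208). With the 2 sides of the split as a term in the fit of all 9 livers, the value was 1.05 ± 0.12 (SE; edgeR, adjusted p = 4.31e-05), and 5 members were called. This fit called 4345 genes in all, against 1704 without the term. Arg1 was not called under the other 5 alternatives to the main fit, the fit with sex among them. Nor was it called with any of the 9 libraries left out (edgeR, adjusted p up to 0.307). The part of sex in the difference below 8% was not tested, since the groups there differ in both.

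**Figure D2:**
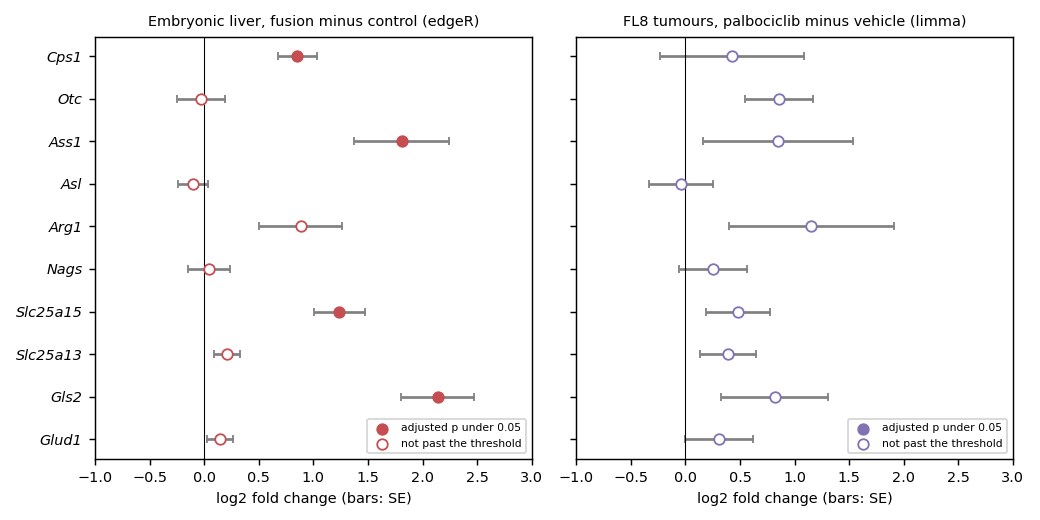
Log2 fold change ± SE of each member, fusion minus control in embryonic liver (left, edgeR) and palbociclib minus vehicle in FL8 tumours (right, limma on log2(CPM + 1)). Filled points have an adjusted p under 0.05, which holds for 4 members on the left and for 0 on the right.

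Per kilobase of coding transcript, Glud1 led in controls at 224 ± 8.41 CPM/kb (SD, n = 5), followed by Arg1 at 164 ± 76.6, Cps1 at 106 ± 20.5, Asl at 79.9 ± 10.6, Slc25a13 at 43.6 ± 4.77, Slc25a15 at 25.3 ± 6.49, Otc at 18.2 ± 5.43, Gls2 at 13.3 ± 4.80, Nags at 10.2 ± 2.85 and Ass1 at 0.360 ± 0.0916. Neighbours in this order overlapped, save Asl with Slc25a13, Slc25a13 with Slc25a15, and Nags with Ass1. In fusion livers the order began with Arg1 at 302 ± 130 CPM/kb (SD, n = 4), Glud1 at 247 ± 16.9, Cps1 at 192 ± 30.7 and Asl at 74.5 ± 7.73. Arg1 and Glud1 overlapped, and the other neighbours among these 4 did not. Slc25a15 at 59.6 ± 19.3 and Gls2 at 59.1 ± 26.5 then stood above Slc25a13 at 50.4 ± 3.81, overlapping it. Otc at 17.8 ± 2.25, Nags at 10.6 ± 0.868 and Ass1 at 1.27 ± 0.914 came last and did not overlap. The place of Ass1 in both orders is uncertain, since how reads shared with Gm5424 were counted is not given.

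Members did not vary as 1 block among the livers. After each group was centred on its mean, log2 levels of Arg1 and Gls2 correlated at r = 0.97, Cps1 and Arg1 at 0.94, Cps1 and Gls2 at 0.94, and Cps1 and Nags at 0.90, while Slc25a15 and Arg1 stood at -0.82 and Slc25a15 and Glud1 at 0.79 (Pearson, n = 9 livers). These values are descriptions: the livers share the split by ribosomal share, which runs along the same libraries, and its part was not tested. Outside the members, the genes whose level followed the mean log2 level of the members most closely over the 9 livers were Slc25a4, a mitochondrial carrier of ADP and ATP (r = 0.996), Ptpn4, a tyrosine phosphatase (r = 0.994), and Sgk1, a kinase induced by glucocorticoids (r = 0.990). These 3 values were not centred by group, so they include the difference between the groups, and they are the highest over all genes tested outside the members.

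**Figure D3:**
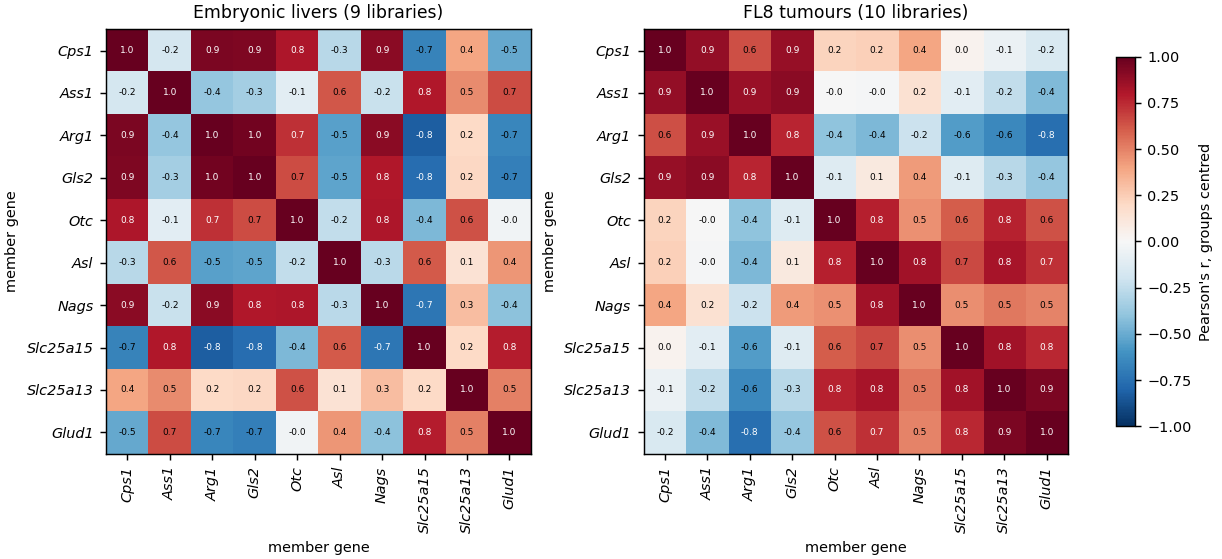
Pearson's r between log2 levels of the members after centring each group, over 9 embryonic livers (left) and 10 FL8 tumours (right); red is positive and blue negative. In livers Cps1, Arg1, Gls2, Nags and Otc form 1 red set (r from 0.65 to 0.97), with negative r to Slc25a15. In tumours Cps1, Ass1, Arg1 and Gls2 form 1 set and the other 6 another. The second tumour set rests on vehicle tumours 1 and 5: its median r was 0.73 with them and -0.11 without them.

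Among 34 neighbouring genes of nitrogen supply, transport and ornithine or arginine use, 32 were in the embryo table and 31 were tested. Of these, 10 were higher and 7 lower with the fusion (edgeR), beside 5.99% and 6.81% of all genes tested. This list too was chosen with earlier results of these data known. The higher ones included both cytosolic aminotransferases of this list. Got1, the cytosolic aspartate aminotransferase, was at 71.0 to 85.7 CPM in controls and 779 to 1418 CPM in fusion livers (log2 fold change 3.81 ± 0.18, SE; edgeR, adjusted p = 2.27e-06). Its mitochondrial partner Got2 overlapped, at 222 to 265 and 262 to 289 CPM (log2 fold change 0.15; edgeR, adjusted p = 0.412). Gpt, cytosolic alanine aminotransferase, was at 12.8 to 15.5 CPM in controls and 56.3 to 128 CPM in fusion livers (2.61 on the log2 scale; edgeR, adjusted p = 7.78e-05). Its mitochondrial partner Gpt2 was lower, at 36.9 to 48.1 CPM in controls and 25.6 to 35.0 CPM in fusion livers (-0.47 on the log2 scale; edgeR, adjusted p = 0.0285).

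Of the transporters, Slc25a22, a mitochondrial glutamate carrier, rose by 1.53 on the log2 scale and Slc7a2, a carrier of arginine and other cationic amino acids, by 1.49. The glutamine transporters Slc38a3 and Slc38a2 rose by 0.93 and 0.85. Oat, ornithine aminotransferase, rose by 1.19 and Aldh4a1, which turns the semialdehyde it makes into glutamate, by 0.65. On the falling side were Aqp8 (-2.29), a channel that also passes ammonia, Aqp9 (-1.51), a channel of glycerol and urea, Gamt (-1.32), the last step of creatine synthesis, and Car5a (-1.23), the mitochondrial carbonic anhydrase that supplies bicarbonate to Cps1. Car5a was at 9.63 to 12.8 CPM in controls and 2.22 to 7.06 CPM in fusion livers, so that the enzyme feeding Cps1 fell while Cps1 rose. Adjusted p-values in edgeR for these 10 genes lay between 4.85e-05 and 0.0159. Among libraries above 8%, Aldh4a1 and Aqp9 no longer passed, at 0.46 and -0.61 on the log2 scale (edgeR, adjusted p = 0.0521 and 0.0574). Below 8% Aqp9 was at -2.42. Without control 4, control 5 or fusion 6, 4 genes of the list were lower in place of 7.

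**Figure D4:**
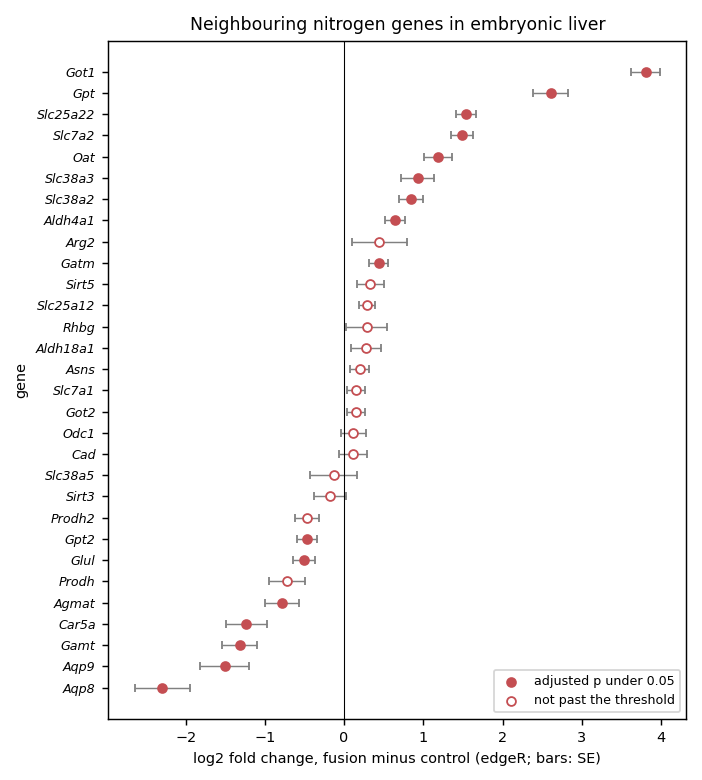
Log2 fold change ± SE (edgeR), fusion minus control, of 30 of the 31 tested genes around the urea cycle in embryonic liver, ordered by value; filled points have an adjusted p under 0.05. Got1 at 3.81 and Aqp8 at -2.29 are the ends of the range, and 16 of the 30 are filled.

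Isozymes of the members were looked at beside them. Arg2, the mitochondrial arginase found mainly outside the liver, was at 0.142% to 0.463% of both arginases in all 9 livers. Slc25a12, the other aspartate carrier, made up 13.5% to 18.9% of the carrier pair.

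Of 14 genes for regulators of this pathway, all tested, 2 were higher and 3 lower. Ppargc1a, a coactivator induced by fasting and cyclic AMP, was higher, at 6.63 to 9.20 CPM in controls and 42.2 to 77.7 CPM in fusion livers (log2 fold change 2.92 ± 0.18, SE; edgeR, adjusted p = 8.45e-06). Klf15, a factor known to control amino acid breakdown, rose by 0.82 (edgeR, adjusted p = 0.00996). Gcgr, the glucagon receptor, was lower, at 56.0 to 87.9 CPM in controls and 15.5 to 27.7 CPM in fusion livers (log2 fold change -1.83 ± 0.20, SE; edgeR, adjusted p = 0.000328). Foxa2 (-0.80) and Cebpa (-0.65) were lower in edgeR with adjusted p of 0.0189 and 0.0303. Leaving out control 3, 4 or 5 or fusion 6 or 8 ended the call of Cebpa, and leaving out fusion 6 or 7 that of Foxa2. Cebpa was also not called with the sex of the embryo in the fit (-0.52; edgeR, adjusted p = 0.0660) or among libraries above 8% (-0.44; edgeR, adjusted p = 0.0890). Creb1 and Crtc2, the cyclic AMP factor and its coactivator, had log2 fold changes of 0.24 and -0.12 and did not pass.

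The bulk livers hold several cell types, in which fewer cells of a type and less RNA per cell cannot be told apart. Hepatocyte markers were present in all livers, with Alb leading, and their summed level was 130688 to 179236 CPM in controls and 94824 to 154398 CPM in fusion livers. Of 10 such markers 1 was called, Apoa1, which fell by 0.89 on the log2 scale, while 4 had an unadjusted p under 0.05, 3 were lower without overlap and the median log2 fold change of the list was -0.31. Erythroid markers, the main other cells of fetal liver, summed to 3585 to 6295 CPM in controls and 4008 to 5280 CPM in fusion livers, and 0 of 8 passed in edgeR (0 at an unadjusted p under 0.05). Markers of the bile duct were lower in the fusion livers, summing to 49.9 to 73.8 CPM in controls and 11.4 to 41.4 CPM in fusion livers, and 3 of 5 (Krt19, Krt7 and Epcam) were called. Fibroblast or stellate markers summed to 226 to 402 CPM in controls and 185 to 289 CPM in fusion livers. Of these, 2 of 5 were lower, the collagen genes Col1a1 (log2 fold change -0.80; edgeR, adjusted p = 0.0227) and Col1a2 (-0.57; edgeR, adjusted p = 0.0467). The part of either list in the differences above was not tested.

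Markers of portal and central hepatocytes moved as well. Periportal markers outside the members summed to 1285 to 2047 CPM in controls and 2609 to 5063 CPM in fusion livers, and 4 of 7 were higher: Pck1 (log2 fold change 5.32) and G6pc (2.36) of glucose production, Sds (4.53) of serine breakdown and Hal (0.85) of histidine breakdown. The other 3, among them Cdh1 and Cyp2f2, did not pass. Pericentral markers summed to 587 to 768 CPM in controls and 374 to 494 CPM in fusion livers. Of the 5 tested, Glul (-0.50), glutamine synthetase, and Cyp2e1 (-3.79) were lower, Oat was higher, and Rhbg and Lgr5 did not pass. Glul, Oat and Rhbg also belong to the neighbouring genes. The part of these lists in the members' values was not tested.

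In the FL8 tumours, 0 of the 10 members differed between palbociclib and vehicle in limma on log2(CPM + 1), with 0% of 12829 genes called, and 1 member (Otc) had an unadjusted p under 0.05, as did 4.57% of all genes. On recovered reads, edgeR also called 0 genes and DESeq2 called 8 (0.0468% of genes), with no member among them. Every member overlapped between the groups, and 0.935% of all genes did not. The members' median log2 fold change was 0.46 and 9 of 10 were above 0, beside a median of 0.14 and 68.8% above 0 over all genes. On edgeR's scaling the members' median was 0.36, beside -0.05 and 44.4% over all genes.

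**Figure D5:**
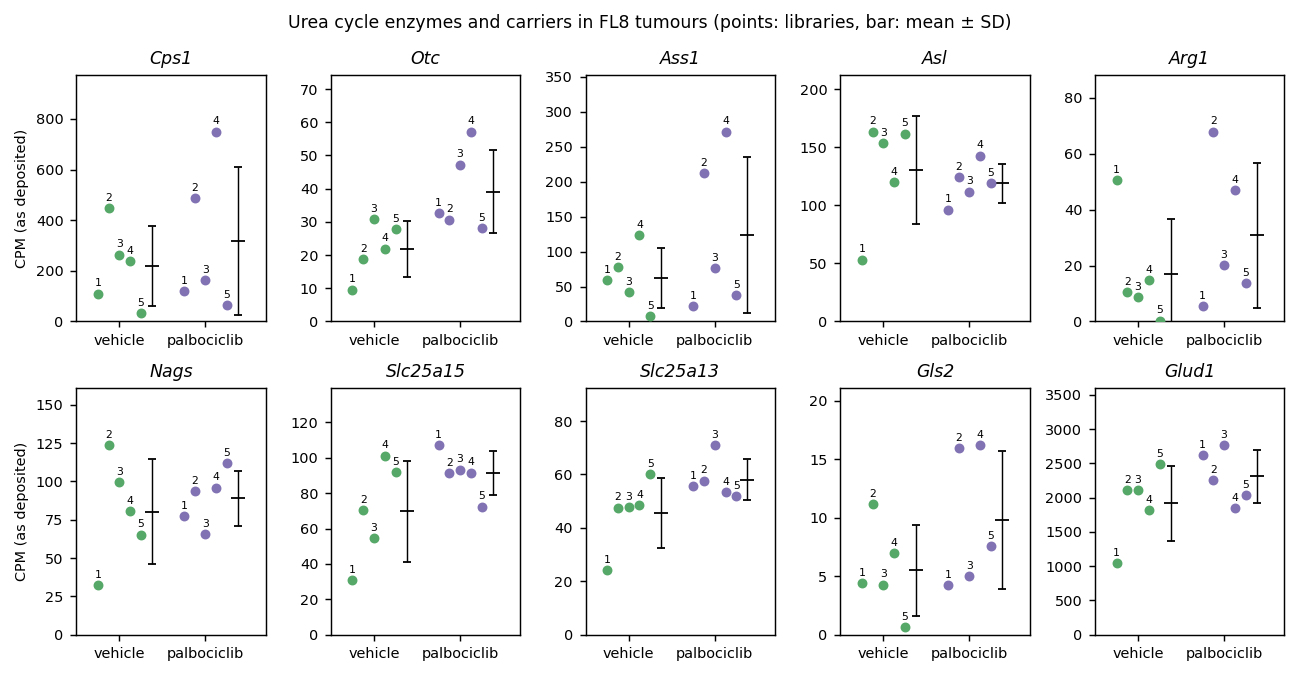
CPM as deposited (linear axis from 0) of each member in 5 vehicle and 5 palbociclib tumours; points are libraries with their number, the bar is the mean ± SD. The groups overlap in all 10 panels. Vehicle tumour 1 is the lowest of the 10 tumours in 6 panels and vehicle tumour 5 in the other 4.

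Otc was at 9.60, 18.8, 30.9, 22.0 and 27.7 CPM in vehicle tumours 1 to 5 and at 32.6, 30.7, 47.2, 57.2 and 28.0 CPM in palbociclib tumours 1 to 5. Vehicle tumour 3 lay above palbociclib tumours 2 and 5. The log2 fold change was 0.86 ± 0.31 (SE; limma over all genes, adjusted p = 0.953, with an unadjusted p of 0.0142). Without vehicle tumours 1 and 5 it was 0.67 (limma, adjusted p = 0.531).

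Cps1, Ass1, Arg1 and Gls2 ranged widely from tumour to tumour, in both groups. Cps1 was at 110, 449, 264, 238 and 33.2 CPM in vehicle tumours and at 121, 486, 163, 750 and 64.3 CPM in palbociclib tumours. Ass1 was at 59.3, 78.2, 42.2, 124 and 7.44 CPM and at 22.3, 212, 76.6, 272 and 37.9 CPM. Arg1 was at 50.7, 10.6, 8.83, 14.8 and 0.338 CPM and at 5.56, 68.0, 20.2, 47.1 and 13.7 CPM. Gls2 was low, at 4.40, 11.2, 4.29, 6.99 and 0.677 CPM and at 4.25, 15.9, 4.99, 16.2 and 7.56 CPM. Palbociclib tumours 2 and 4 had the 2 highest levels of Cps1, Ass1 and Gls2, and were among the 3 highest of Arg1. Vehicle tumour 5 was lowest in all 4, where the level of Arg1 rests on 1 read and that of Gls2 on 2 reads, both under the floor of 3 reads (1.01 CPM in that library).

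These 4 genes were singled out after their values were seen, so no test is given. Without vehicle tumours 1 and 5, the highest of the 8 tumours was 11.7 times the lowest in Cps1, 12.2 in Ass1, 12.2 in Arg1 and 3.82 in Gls2, and 1.49 to 3.04 times in the other 6 members. Over all 10 tumours 0.631%, 0.429%, 0.195% and 4.71% of the 12829 genes had a larger SD of log2(CPM + 1) than Cps1, Ass1, Arg1 and Gls2. These shares rest on the spread for which the 4 genes were singled out, so they are no support for it. They also include vehicle tumours 1 and 5. After centring the groups, pairs of the 4 genes had r of 0.64 to 0.90 (6 pairs, n = 10 tumours), and 0.77 to 0.95 without vehicle tumours 1 and 5 (n = 8). Pairs among the other 6 members had a median r of 0.73, which fell to -0.11 (n = 8) without those tumours, so that their correlation rested on them. The tumours share depth and composition, and these values are descriptions.

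The fold changes of the 4 genes were small beside this spread. In limma, Cps1 had a log2 fold change of 0.43 ± 0.66 (SE; adjusted p = 0.961), Ass1 0.85 ± 0.69 (adjusted p = 0.953), Arg1 1.15 ± 0.76 (adjusted p = 0.953) and Gls2 0.82 ± 0.49 (adjusted p = 0.953). Without vehicle tumours 1 and 5, Cps1 was at -0.49 and Ass1 at 0.15.

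Markers of other cells moved with part of this spread. The 6 macrophage markers (5 in the files, Clec4f not among them) summed to 1227 CPM in vehicle tumour 1, 310 CPM in palbociclib tumour 2 and 231 CPM in palbociclib tumour 4, the 3 tumours highest in Arg1, a gene that macrophages can also express. They summed to 65.8 to 246 CPM in the other 7 tumours. The 5 fibroblast or stellate markers summed to 240, 190 and 182 CPM in the same 3 tumours and to 39.6 to 120 CPM in the other 7. The cholangiocyte markers (3 of 5 in the files, Krt7 and Epcam not among them) summed to 128, 87.3 and 78.7 CPM in these 3 tumours and to 22.2 to 44.5 CPM in the other 7. In vehicle tumour 1 this sum was almost all Spp1, at 126 CPM. Sox9 was there at 2.21 CPM, its lowest level in the vehicle tumours, so the sum does not show a rise of the list. The part of these lists in the values of Arg1 was not tested. Hepatocyte markers summed to 41355 to 117258 CPM in vehicle tumours and 86589 to 131096 CPM in palbociclib tumours.

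Glud1, Asl, Nags, Slc25a15 and Slc25a13 were steadier. Glud1 was at 1043, 2106, 2111, 1822 and 2493 CPM in vehicle tumours and 2625, 2254, 2770, 1852 and 2040 CPM in palbociclib tumours (limma, log2 fold change 0.31 ± 0.31, SE; adjusted p = 0.953). Asl was at 53.2 to 163 and 96.3 to 143 CPM, Nags at 32.6 to 124 and 65.6 to 112 CPM, Slc25a15 at 30.8 to 101 and 72.3 to 107 CPM, and Slc25a13 at 24.1 to 60.2 and 52.0 to 71.1 CPM. In all 5, as in Otc, vehicle tumour 1 was the lowest. With mitochondrially encoded genes left out of the total it was the lowest in 3 of these 6 genes (Otc, Nags and Slc25a13), and its Glud1 was 1953 CPM.

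Per kilobase, Glud1 led in both tumour groups, at 565 ± 160 CPM/kb (SD, n = 5) with vehicle and 681 ± 114 (SD, n = 5) with palbociclib, and overlapped no other member. In vehicle tumours Asl at 54.1 ± 19.3, Nags at 39.6 ± 17.0, Cps1 at 39.4 ± 28.7 and Ass1 at 36.7 ± 25.5 followed and overlapped. Gls2 was last at 2.14 ± 1.51. The order differs from that of the livers, where Arg1 was among the first 2 and Ass1, whose level is uncertain in both, was last. But the tables were made separately, with other tools, and no test was made across them. The arginases also stood in other proportions. Arg2 was 18.7% to 95.5% of both arginases in the tumours.

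Of the 34 neighbouring genes, 31 were tested in the tumours and 0 were called in limma (0 in edgeR and in DESeq2), with 1 at an unadjusted p under 0.05. Got1 was at 33.2 to 81.1 CPM in vehicle and 53.9 to 109 CPM in palbociclib tumours, with a log2 fold change of 0.51 (limma, adjusted p = 0.953). Of the 14 regulators 0 were called and 0 had an unadjusted p under 0.05. Ppargc1a was at 0.974 to 3.18 CPM and 2.19 to 2.90 CPM.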

How the data were processed

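RNA-seq of 9 mouse embryonic livers (poly-A RNA) and 10 FL8 tumours was used. For the livers the authors deposited raw counts under gene symbols, for genes with at least 47 counts in all; STAR 2.5.1b and mm10 are named in the submitters' processing notes. The tumour files hold CPM deposited by the authors per Ensembl gene, with cutadapt 2.10, HISAT2, featureCounts, R 4.1.2 and mm10 in the submitters' processing notes. DESeq2 is named there for both. Strand use and treatment of reads shared by related genes are not given in the sources used here. A further 9 columns of scaled values in the embryo table were not used. All tumour values (100%) came within 0.01 of a whole read once divided by the value of 1 read, which gave library sizes.

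Groups came from the genotype and treatment labels. Embryo counts were tested with edgeR 4.0.16 (quasi-likelihood, TMM, filterByExpr) under R 4.3.3. Tumours, being CPM, were tested with limma 3.58.1 (trend) on log2(CPM + 1), keeping genes whose mean reached 1 CPM; this scale understates changes at low levels. P-values were adjusted by Benjamini-Hochberg over all genes tested, with a threshold of 0.05. Embryo CPM are TMM scaled. Both fits were tested on simulated data. A count of 3 was the floor, 0.0658 to 0.392 CPM in livers and 0.0695 to 1.01 CPM in tumours, for counting error only. GENCODE M21 gave identifiers, coordinates (mm10) and transcripts, RefSeq the promoters. The labels speak of carrier and the series text of PBS for the tumour controls; the labels were followed. Alternatives used DESeq2 1.42.0 and limma-voom, other scalings and filters, covariates, library subsets and a replicate block.

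The members were named by the rule. Of the 34 neighbouring genes and 14 regulators, those past the threshold were named, up to 12 per list by smallest p; Got2, Gpt2, Arg2, Slc25a12, Creb1, Crtc2, Glul and the tumour values of Got1 and Ppargc1a were added after values were seen. Members and lists, cell type markers included, were chosen with earlier results of these data known. Some items were left out and are not reported here.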

Additional observations from a re-analysis of the deposited data

Results flagged for a closer look

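Each member was screened in each group for a library standing far from the others, by the gap to its neighbour over the range of the group. Of 40 such groups 2 stood out, and chance alone gives about 2.

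Ass1 in fusion liver 8 was at 4.45 CPM (58 counts), with the other 3 fusion livers at 1.04 to 1.60 CPM. Without this liver the log2 fold change of Ass1 was 1.20 in place of 1.81 (edgeR, adjusted p = 0.0330), and no call of a member changed.

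Arg1 in vehicle tumour 1 was at 50.7 CPM, with the other 4 vehicle tumours at 0.338 to 14.8 CPM. With mitochondrially encoded genes left out of the total it was at 94.9 CPM, the highest of all 10 tumours. The macrophage markers of this tumour, at 1227 CPM in sum, were also the highest of the 10.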

How the results depend on the processing

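In embryonic liver, 3 to 5 members were higher and 0 lower under the 8 alternatives, and 4 and 0 with each library left out. Gls2, Slc25a15 and Cps1 kept their call in all of these, and Ass1 in all but the fit with sex. The count of called genes was 4345 with the 2 sides of the 8% split as a covariate, 2589 above 8%, 2950 below 8%, and 969 to 1581 with 1 library left out (969 without control 3, 987 without fusion 8, 1107 without fusion 7). The members' median log2 fold change, with Ass1 included, was 0.74 among libraries above 8%, and 0.44 to 0.59 with 1 library left out. The lower neighbouring genes numbered 4 with sex as a covariate and 4 above 8%, and 4 to 7 with 1 library left out. The sign of members near 0 changed. Otc was at 0.057 with the 2 sides of the split, 0.15 with sex, 0.36 above 8%, and between -0.18 and 0.087 with 1 library left out. Nags was at -0.12 in limma-voom, -0.12 below 8% and between -0.063 and 0.14 with 1 library left out. The cause of these changes was not tested.

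In tumours, 0 members and 0 neighbouring genes were called under every alternative run. The count of genes was 8 with DESeq2 and 0 otherwise. The members' median log2 fold change was 0.22 to 0.46 over the alternatives and 0.26 to 0.71 with 1 tumour left out. Cps1 was at -0.49 and Nags at -0.19 without vehicle tumours 1 and 5, and Nags at -0.029 in limma-voom. With 1 tumour left out, Cps1 ranged from -0.13 to 0.86, Nags from -0.037 to 0.44 and Asl from -0.33 to 0.068. The labels do not say that a shared number pairs 2 tumours. Tumours with the same number did not deviate together (r from -0.32 to 0.00), which cannot exclude a pairing. With the replicate block 0 members and 0 genes were called, with a median of 0.46. Low counts limit Ass1 in livers, at 6 to 58 counts, where the counting of reads shared with Gm5424 is also not given. Depth limits Arg1 and Gls2 in vehicle tumour 5, at 1 and 2 reads.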
